A study of Homo sapiens with 6 samples.

Results

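Septins are described here in RNA-seq of 2 established human cell lines, Jeko and Rec-1, both derived from mantle cell lymphoma (a cancer of B cells). The deposited table names its genes by symbol, and spreadsheet software had turned 28 of its 25277 names into calendar dates. The 9 rows 1-Sep, 2-Sep, 3-Sep, 5-Sep, 6-Sep, 7-Sep, 8-Sep, 9-Sep and 11-Sep were taken as the septins of the same number and are written below as SEPTIN1 to SEPTIN11. The table pairs these names with no gene identifier, so the identity of each row rests on the number in the date. The row 15-Sep stands for a selenoprotein and was left out. Another 4 date rows stand for septins (4-Sep, 10-Sep, 12-Sep and 14-Sep). The highest of these, SEPTIN14, had a mean of 0.275 FPKM over the 6 libraries, against 4.26 FPKM for SEPTIN3, the lowest of the 9. SEPTIN10 and SEPTIN12 were listed at 0 in every library. SEPTIN4 was listed at 0 in both Jeko sgRNA libraries and was highest in Rec-1 sgRNA 2, at 0.191 FPKM.

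Per the labels, both lines expressed Cas9 and received a vector switched on by doxycycline. In 1 library of each line the vector was empty (control), and in the other 2 it held a guide RNA against NR4A1, a nuclear receptor gene (sgRNA 1 and sgRNA 2). All 6 libraries, controls included, were taken 48 h after doxycycline. The labels state neither the guide sequences nor whether the libraries of a line came from separate cultures, so the spread between them may be technical. The values are FPKM, fragments scaled to transcript length and to the mapped total of the library, which allow levels of different genes to be set side by side.

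Septins are GTP-binding proteins that join end to end into rods and filaments beneath the plasma membrane, where they act in cell division, cell shape and membrane organisation. They fall into groups by sequence, and a rod takes its subunits from different groups. Members of a group can stand in for each other at its place in the rod. Of the 9, SEPTIN1, SEPTIN2 and SEPTIN5 belong to the SEPT2 group, SEPTIN6, SEPTIN8 and SEPTIN11 to the SEPT6 group, and SEPTIN3 and SEPTIN9 to the SEPT3 group. SEPTIN7 stands alone in its group and is the subunit that has no such substitute among the 9. In lymphocytes septins are known for keeping the cell cortex stiff during migration.

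The 9 were chosen by their date names and selected on measured FPKM values of all 6 libraries, using both the comparison of Jeko with Rec-1 sgRNA libraries and that of sgRNA libraries with the control of their own line. Beneath SEPTIN3, the lowest chosen septin, the next was SEPTIN14, with the means given above. Values of these comparisons are therefore descriptions, given with no test for the septins. The difference between guides 2 and 1 was not used in the choice and was tested.

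Several properties of the libraries bear on what follows. Across 10328 protein-coding genes, which are not independent replicates, Pearson's r between the 2 controls was 0.988, while that between the library labelled Rec-1 control and Rec-1 sgRNA 1 or 2 was 0.805 or 0.812. CCND1 (cyclin D1, the gene driven by the defining translocation of mantle cell lymphoma) was nearly absent from Rec-1 sgRNA 1 and 2, at 0.696 and 0.592 FPKM. The Rec-1 control had 495 FPKM of it, within the Jeko range of 442 to 815. Rec-1 sgRNA 1 and 2 thus nearly lacked this transcript of the disease, and which cells they hold was not tested. Comparisons of Jeko sgRNA with Rec-1 sgRNA contain this too, and the lines are named below as labelled. SOX11, another marker of the disease, ranged from 7.11 to 11.1 FPKM outside Rec-1 sgRNA 1 and 2, which had 3.60 and 2.45, and CD5 was under 0.1 FPKM everywhere. Every comparison of Rec-1 sgRNA with the library labelled Rec-1 control contains this difference, and the effect of the vector and that of the cells in the library cannot be told apart in it. NR4A1, the targeted gene, had 5.99 FPKM with the empty vector in Jeko, then 3.89 with sgRNA 1 and 4.44 with sgRNA 2. For Rec-1 the same 3 values were 11.6, 27.4 and 12.7 FPKM, so the level goes against the sgRNA labels there, although a guide can disrupt a gene without lowering its RNA. Summed FPKM of 6 B-cell markers ranged from 584 to 1032 over the libraries, all 6 genes being above 1 FPKM in at least 1 library. The 3 T-cell markers in the table summed to 71.5 and 101 FPKM in Rec-1 sgRNA 1 and 2, and to 0.361 to 0.993 FPKM in the other 4 libraries. Most of this was CD3D, at 66.3 and 95.3 FPKM. CD3E was 5.19 and 5.80 FPKM there and at most 0.531 FPKM elsewhere, while CD2 was at most 0.0291 FPKM in any library. Their part in the septin values was not tested, and in bulk RNA fewer cells of a type and less RNA per cell cannot be told apart. Relative to the Jeko control, the step between low FPKM values gave depths of 0.872 (Jeko sgRNA 1), 1.10 (Jeko sgRNA 2), 1.10 (Rec-1 control) and 0.687 (Rec-1 sgRNA 2), and no common step was found in Rec-1 sgRNA 1.

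Stretches of DNA before the start sites of SEPTIN11 and SEPTIN9 are shown because these are the members with the widest differences between lines for which a start site was at hand. They were chosen after their values were seen. The sequences are from RefSeq on build GRCh38.p14, plus strand, 5′ to 3′, and capitals mark the GC box letters GGGCGG or their reverse complement CCGCCC. The SEPTIN11 stretch is the 250 bases before the start, at chr4:76949502-76949751, with 3 matches and 73.6% G or C. The SEPTIN9 stretch is the first 170 bases of the window of its first listed start, at chr17:77281249-77281418, with 8 matches, some overlapping, and 81.8% G or C.
SEPTIN11: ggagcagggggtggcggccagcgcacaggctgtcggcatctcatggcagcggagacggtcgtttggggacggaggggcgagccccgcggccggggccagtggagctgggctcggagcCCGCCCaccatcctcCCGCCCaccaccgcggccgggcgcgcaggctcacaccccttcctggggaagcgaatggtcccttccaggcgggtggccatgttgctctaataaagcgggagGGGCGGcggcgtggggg
SEPTIN9: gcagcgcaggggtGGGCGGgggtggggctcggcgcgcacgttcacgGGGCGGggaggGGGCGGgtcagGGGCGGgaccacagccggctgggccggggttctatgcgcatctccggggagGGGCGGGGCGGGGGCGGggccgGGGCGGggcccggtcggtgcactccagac
Start sites were matched for 6 of the 9 septins, 20 in all, and SEPTIN1, SEPTIN3 and SEPTIN5 had no entry. GGGCGG, on either strand, was in the 250 bases before 13 of the 20 starts, against 42.6% of 35116 promoter windows of the same length. SEPTIN9 alone had 10 of the 20 starts, 5 of them with these letters, and some windows of a gene overlap. The median G or C was 65.0% in the septin windows and 58.0% in all windows. CCAAT, on either strand, was before 5 of the 20, against 32.0% of all windows. The letters AAAGGTCA, to which NR4A1 is known to bind as a monomer, were before 0 of the 20, and 1.05% of all windows hold them on either strand. These matches describe letters in the windows only.

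SEPTIN9 was the most abundant septin in every library. This septin caps or bridges septin rods and was first found in leukaemia as a fusion partner of the MLL gene. Its gene spans 75276651 to 75496678 of chromosome 17, plus strand, on GRCh37. Exons of SEPTIN9 share 864 bases with a long noncoding RNA gene on the opposite strand. Whether the counting used strand is not given, so part of its value may belong to that gene. The Jeko control had 276 FPKM of SEPTIN9, with 369 in Jeko sgRNA 1 and 375 in Jeko sgRNA 2, and 298 in the Rec-1 control, 177 in Rec-1 sgRNA 1 and 159 in Rec-1 sgRNA 2. The 2 Rec-1 sgRNA libraries were thus the lowest of the 6, and the Rec-1 control lay between the Jeko control and the Jeko sgRNA libraries. The mean of the Jeko sgRNA libraries was 2.22-fold that of the Rec-1 sgRNA libraries, and their nearest values were 2.08-fold apart. Of the summed FPKM of the 9 septins, SEPTIN9 made up 34.2% and 32.7% in Rec-1 sgRNA 1 and 2, against 50.1% to 54.3% in the other 4 libraries.

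SEPTIN3, the other SEPT3-group member and one known mainly from neurons, was present in Jeko and nearly absent from Rec-1 sgRNA. It lies on chromosome 22 from 42365447 to 42394225 (plus strand, GRCh37). The Jeko control had 6.45 FPKM of SEPTIN3, with 6.38 in Jeko sgRNA 1 and 7.08 in Jeko sgRNA 2, and 4.74 in the Rec-1 control, 0.365 in Rec-1 sgRNA 1 and 0.522 in Rec-1 sgRNA 2. The Rec-1 sgRNA libraries stood apart from the other 4, with means 15.2-fold apart between the sgRNA libraries of the lines. SEPTIN3 had the widest range of the 9, 2.57 on the log2(FPKM + 1) scale. The 4 neural markers summed to 83.0 and 42.4 FPKM in Rec-1 sgRNA 1 and 2 and to between 2.45 and 2.996 FPKM elsewhere. That sum was nearly all TUBB3 (59.2 and 27.5 FPKM) and ENO2 (23.7 and 14.7 FPKM), while SYP was under 0.5 FPKM in every library and SNAP25 was listed at 0 in all 6. Their part in the SEPTIN3 values was not tested.

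SEPTIN11 and SEPTIN1 had the opposite pattern and were highest in Rec-1 sgRNA. SEPTIN11, a SEPT6-group subunit, lies on chromosome 4 from 77870904 to 77961537 (plus strand, GRCh37). Levels of SEPTIN11 were 2.78 FPKM in the empty-vector Jeko library, 3.39 in Jeko sgRNA 1 and 3.03 in Jeko sgRNA 2, and 2.68 in the Rec-1 control, 17.5 in Rec-1 sgRNA 1 and 19.7 in Rec-1 sgRNA 2. The first 4 libraries differed little and the last 2 were 5.78-fold above the Jeko sgRNA mean. Rec-1 sgRNA 1 and 2 held SEPTIN11 at 25.5% and 26.8% of the SEPTIN6 level, and the other 4 libraries at 3.16% to 4.95%.

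SEPTIN1, a SEPT2-group septin known mainly from blood cells, lies on chromosome 16 from 30389456 to 30407312 on the minus strand (GRCh37). The Jeko control had 12.6 FPKM of SEPTIN1, with 12.2 in Jeko sgRNA 1 and 18.5 in Jeko sgRNA 2, and 16.9 in the Rec-1 control, 66.6 in Rec-1 sgRNA 1 and 51.6 in Rec-1 sgRNA 2. The 2 Rec-1 sgRNA libraries were again apart from the rest, 3.85-fold above the Jeko sgRNA libraries by their means. In the annotation 380 exonic bases of SEPTIN1 overlap ZNF48 on the opposite strand, and whether the counting used strand is not given in the sources used here, so part of its value may belong to that gene. SEPTIN1 was 13.6%, 10.1% and 15.8% of the SEPTIN2 level in the Jeko control, sgRNA 1 and sgRNA 2, 19.9% in the Rec-1 control, 67.4% in Rec-1 sgRNA 1 and 47.9% in Rec-1 sgRNA 2.

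Ranges on the log2(FPKM + 1) scale were narrower for SEPTIN2, SEPTIN5, SEPTIN6, SEPTIN7 and SEPTIN8 than for SEPTIN1, SEPTIN3, SEPTIN9 and SEPTIN11. SEPTIN2, the most abundant SEPT2-group septin, was 92.8 FPKM in the Jeko control, 121 in Jeko sgRNA 1 and 117 in Jeko sgRNA 2, and 85.3 in the Rec-1 control, 98.8 in Rec-1 sgRNA 1 and 108 in Rec-1 sgRNA 2. Both controls were the lowest 2 of the 6 libraries. It had the smallest range of the 9, 0.50 on the log2(FPKM + 1) scale. Exons of SEPTIN2 share 232 bases with HDLBP on the opposite strand. SEPTIN6, the main SEPT6-group subunit, was 63.8 FPKM in the Jeko control, 107 in Jeko sgRNA 1 and 80.8 in Jeko sgRNA 2, and 54.3 in the Rec-1 control, 68.5 in Rec-1 sgRNA 1 and 73.6 in Rec-1 sgRNA 2. Its controls were likewise the lowest libraries, and the 2 Jeko guides differed from each other by more than the 2 Rec-1 guides.

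SEPTIN7 was 63.4 FPKM in the Jeko control, 83.5 in Jeko sgRNA 1 and 69.6 in Jeko sgRNA 2, and 65.1 in the Rec-1 control, 63.5 in Rec-1 sgRNA 1 and 45.7 in Rec-1 sgRNA 2. Rec-1 sgRNA 2 was the lowest library, and Rec-1 sgRNA 1 was level with both controls. SEPTIN7 has pseudogene copies in the genome that can share its reads. A transcript of the copy SEPT7P2 aligns with that of SEPTIN7 over 208 bases at 97.6% identity, and the row SEPT7P2 went from 7.59 and 7.45 FPKM in the Jeko and Rec-1 controls to 4.21 and 5.19 in Jeko sgRNA 1 and 2 and to 2.13 and 2.57 in Rec-1 sgRNA 1 and 2. The SEPTIN7 values are uncertain to that extent.

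SEPTIN5 and SEPTIN8 were lower than SEPTIN2 and SEPTIN6, the most abundant members of their groups, in all 6 libraries. SEPTIN5, known from nerve endings and platelets, was 10.4 FPKM in the Jeko control, 15.4 in Jeko sgRNA 1 and 12.97 in Jeko sgRNA 2, and 8.90 in the Rec-1 control, 16.8 in Rec-1 sgRNA 1 and 15.1 in Rec-1 sgRNA 2. The sgRNA libraries of the 2 lines overlapped, which held for no other septin of the 9. All 4 platelet markers were under 0.1 FPKM in every library. The table also has a row for the read-through transcript SEPT5-GP1BB, between 2.23 and 9.37 FPKM, and how fragments were shared between the rows is not known. SEPTIN8 was 13.5 FPKM in the Jeko control, 17.7 in Jeko sgRNA 1 and 16.4 in Jeko sgRNA 2, and 13.03 in the Rec-1 control, 8.06 in Rec-1 sgRNA 1 and 13.1 in Rec-1 sgRNA 2. Rec-1 sgRNA 1 was the lowest library, and Rec-1 sgRNA 2 was level with both controls. In the annotation 1150 exonic bases of SEPTIN8 overlap CCNI2 on the opposite strand.

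**Figure D1:**
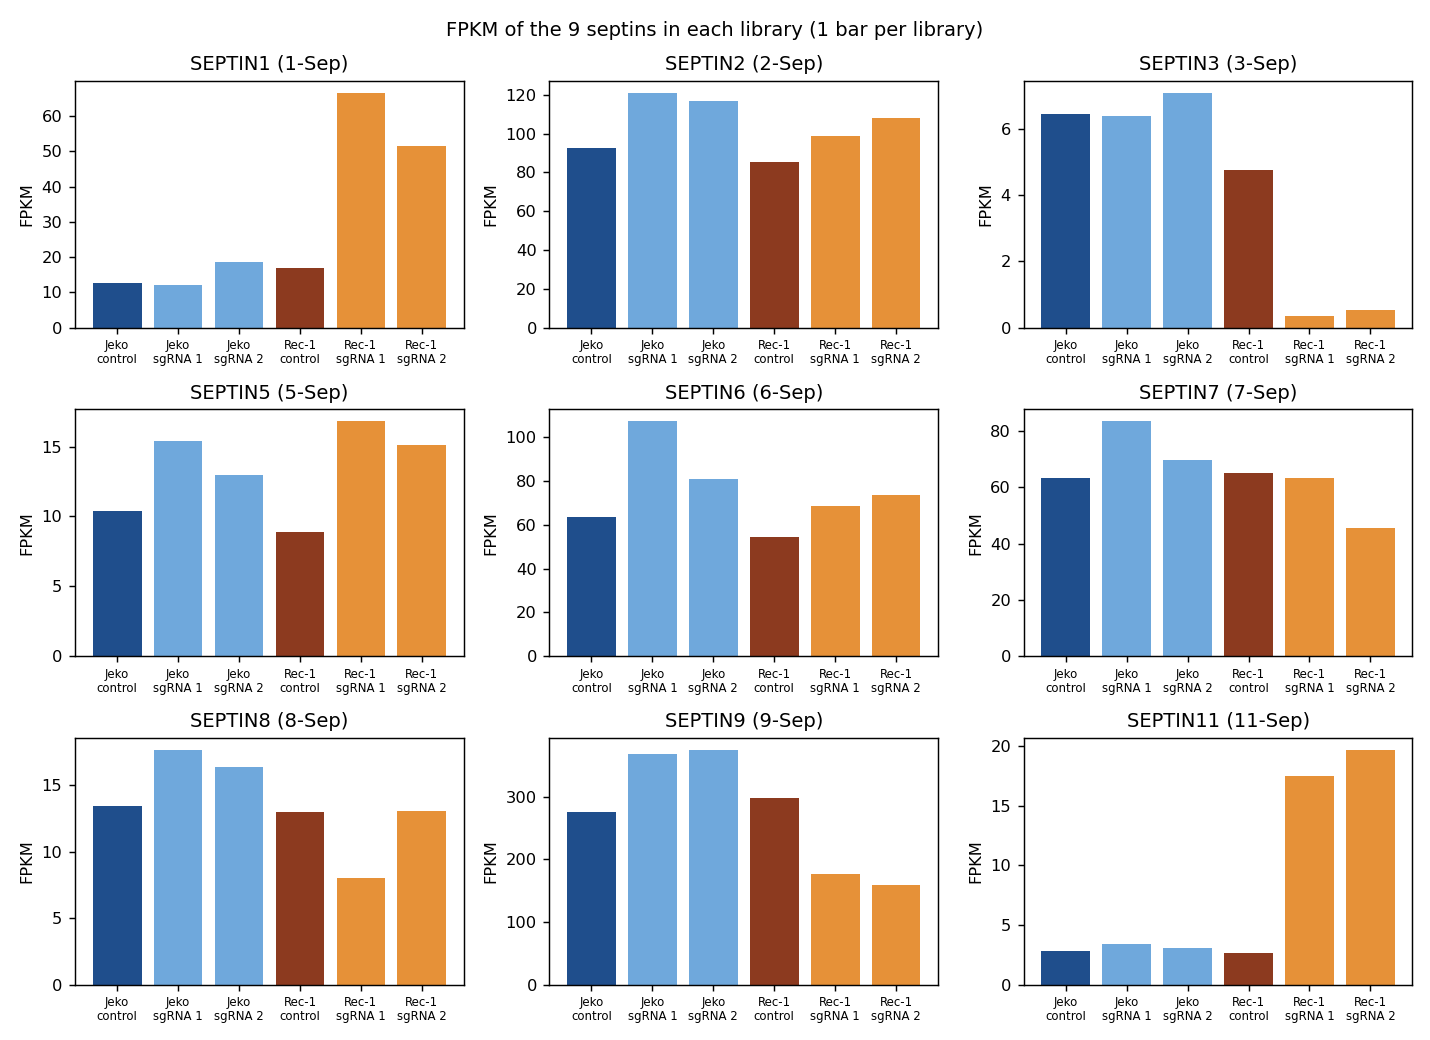
FPKM of each of the 9 septins (vertical axis, from 0, a scale of its own per panel) in the 6 libraries, 1 bar per library with no error bar. SEPTIN1 and SEPTIN11 are highest and SEPTIN3 and SEPTIN9 lowest in the 2 Rec-1 sgRNA libraries, and the Rec-1 control resembles the Jeko libraries in all 4.

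The level order of the family was nearly fixed within Jeko and changed in Rec-1 sgRNA. In the Jeko control it ran SEPTIN9, SEPTIN2, SEPTIN6, SEPTIN7, SEPTIN8, SEPTIN1, SEPTIN5, SEPTIN3 and SEPTIN11. SEPTIN6 and SEPTIN7 were 1.01-fold apart there, and they changed places in the Rec-1 control (54.3 and 65.1 FPKM), so these neighbours are not separated. SEPTIN1, SEPTIN5 and SEPTIN8 also changed places among the Jeko libraries. In both Rec-1 sgRNA libraries SEPTIN1 stood between SEPTIN6 and SEPTIN7, SEPTIN11 above SEPTIN5 and SEPTIN8, and SEPTIN3 last. SEPTIN9 was above SEPTIN2, and SEPTIN2 above SEPTIN6 and SEPTIN7, in all 6 libraries.

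The 9 septins together summed to 541.5 FPKM in the Jeko control, 736 in Jeko sgRNA 1 and 701 in Jeko sgRNA 2, and to 549 in the Rec-1 control, 517 in Rec-1 sgRNA 1 and 486 in Rec-1 sgRNA 2. The Jeko sgRNA sums were 1.43-fold the Rec-1 sgRNA sums by their means. Without SEPTIN9 this ratio was 1.04, so most of the difference in the sum lay in that septin. The SEPT3 group held 52.2%, 51.0% and 54.6% of the sum in the Jeko control, sgRNA 1 and sgRNA 2 and 55.2% in the Rec-1 control. Rec-1 sgRNA 1 had 34.3% and Rec-1 sgRNA 2 had 32.8%. The SEPT2 group took between 20.2% and 21.4% in the first 4 libraries and 35.3% and 35.9% in the last 2. The SEPT6 group went from between 12.8% and 17.5% to 18.2% and 21.9%. SEPTIN7 kept between 9.41% and 12.3% throughout. Shares of a sum are not independent of each other, and a lower share of SEPTIN9 by itself raises all the others.

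**Figure D2:**
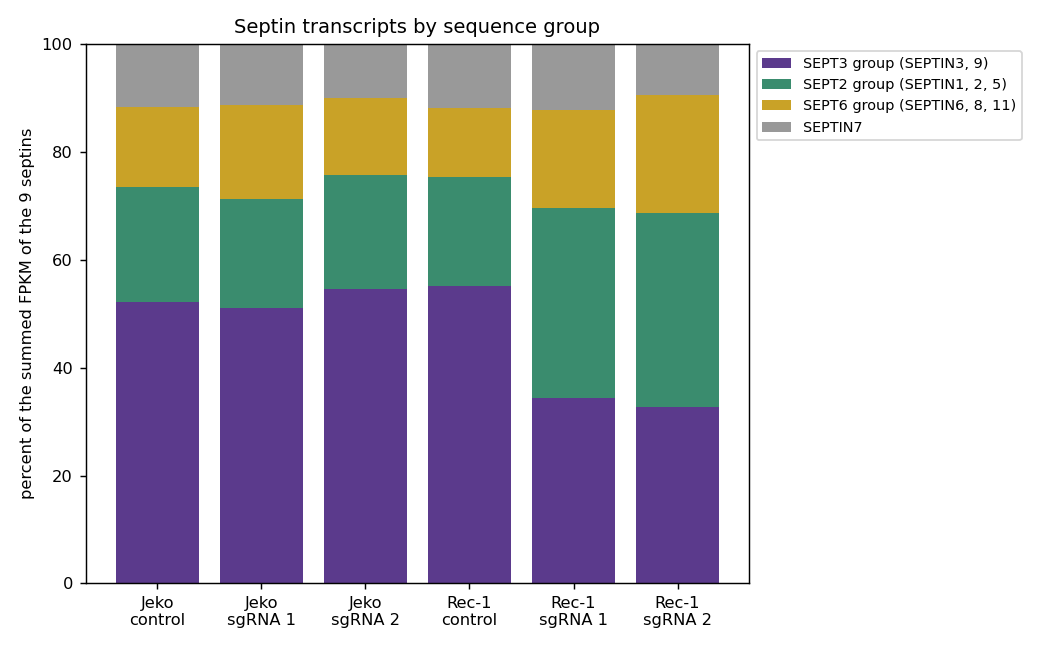
Percent of the summed FPKM of the 9 septins (vertical axis) held by each sequence group in the 6 libraries, 1 stacked bar per library. The SEPT3 group holds between 51.0% and 55.2% in 4 libraries, against 34.3% in Rec-1 sgRNA 1 and 32.8% in Rec-1 sgRNA 2.

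Between the sgRNA libraries of the 2 lines, 8 of the 9 septins did not overlap, all but SEPTIN5. Of the 11400 genes tested, those averaging 1 FPKM or more, 69.9% did not overlap between these 2 and 2 libraries. SEPTIN2, SEPTIN3, SEPTIN6, SEPTIN7, SEPTIN8 and SEPTIN9 were higher in Jeko sgRNA, against 37.0% of all tested genes, and SEPTIN1 and SEPTIN11 were higher in Rec-1 sgRNA, against 32.9%. The means were also at least 2-fold apart on the log2(FPKM + 1) scale, without overlap, for SEPTIN1, SEPTIN3, SEPTIN9 and SEPTIN11, 4 of 9, against 25.3% of tested genes. The differences, Jeko sgRNA minus Rec-1 sgRNA, were 2.42 for SEPTIN3, 1.15 for SEPTIN9, −1.89 for SEPTIN1 and −2.22 for SEPTIN11. The other 5 lay between −0.16 (SEPTIN5) and 0.67 (SEPTIN8), and 4 of them moved by over 1.5 times when 1 library was left out. SEPTIN8 went to 0.36 without Rec-1 sgRNA 1, and SEPTIN7 from 0.49 to 0.26 without Rec-1 sgRNA 2. SEPTIN6 went from 0.39 to 0.18 without Jeko sgRNA 1 and to 0.59 without Jeko sgRNA 2. SEPTIN5 went to −0.047 without Jeko sgRNA 2, to −0.28 without Jeko sgRNA 1 and to −0.090 without Rec-1 sgRNA 1. The median absolute difference was 0.67 over the 9 and 0.54 over all tested genes. Since this comparison was used to choose the septins, the counts are given as they stand.

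The 2 controls differed far less at SEPTIN1, SEPTIN3, SEPTIN9 and SEPTIN11. The Rec-1 control minus the Jeko control was 0.40 for SEPTIN1, −0.38 for SEPTIN3, 0.11 for SEPTIN9 and −0.037 for SEPTIN11, with 1 library on each side. At SEPTIN5 it was −0.20, no less in size than the −0.16 of Jeko sgRNA minus Rec-1 sgRNA. The median absolute difference between the controls was 0.12 over the 9 septins and 0.16 over all tested genes. All 9 septins were within 2-fold between the controls, as were 97.5% of tested genes. The Rec-1 control was nearer to the mean of the Jeko sgRNA libraries than to that of the Rec-1 sgRNA libraries for 6 of the 9, SEPTIN1, SEPTIN3, SEPTIN5, SEPTIN7, SEPTIN9 and SEPTIN11, against 68.6% of tested genes. That count is near the share of all tested genes.

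**Figure D3:**
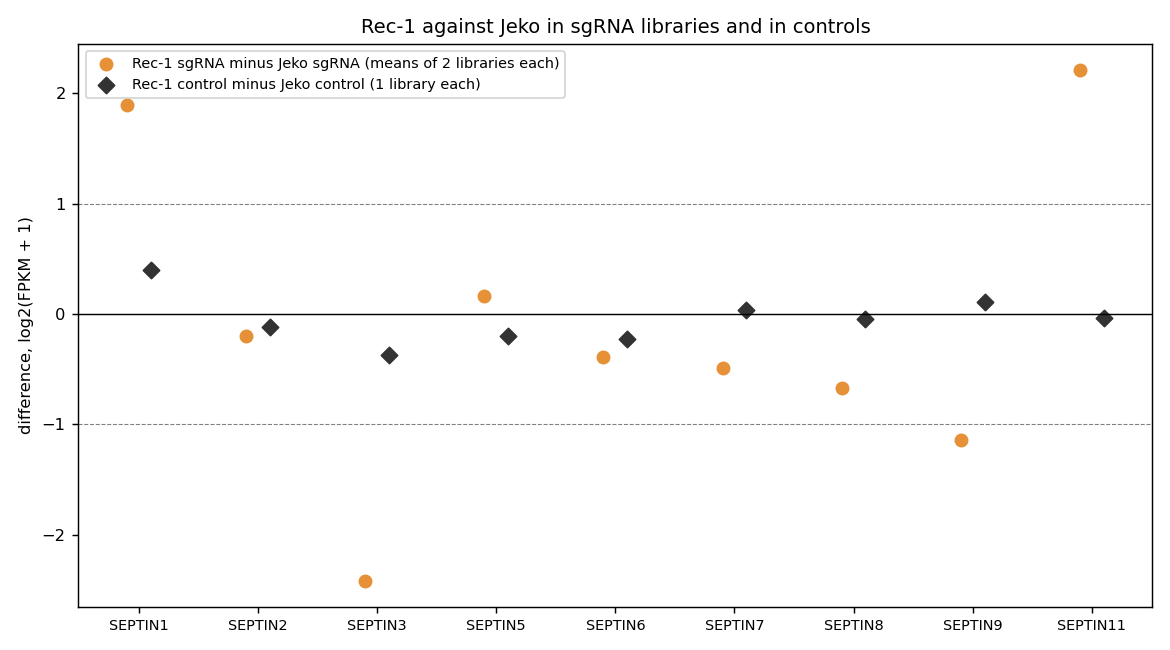
Difference between the lines on the log2(FPKM + 1) scale (vertical axis) for each septin, in the sgRNA libraries (circles, means of 2 libraries per line) and in the controls (diamonds, 1 library per line). Dashed lines mark 2-fold. SEPTIN1, SEPTIN3, SEPTIN9 and SEPTIN11 lie beyond 2-fold in the sgRNA libraries and within it in the controls.

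Against the control of their own line, the septins in Jeko sgRNA were mostly higher, by small amounts. In both Jeko sgRNA libraries 7 of the 9 were above the Jeko control (SEPTIN2, SEPTIN5, SEPTIN6, SEPTIN7, SEPTIN8, SEPTIN9 and SEPTIN11), against 36.9% of tested genes, and 0 were below it, against 36.4%. None reached 2-fold with both guides, which 3.04% of tested genes did. SEPTIN6 was at 168% and 127% of the control with sgRNA 1 and 2. SEPTIN9 was at 134% and 136%, SEPTIN2 at 131% and 126%, and SEPTIN5 at 149% and 125%. SEPTIN1 was at 96.9% and 147%, and SEPTIN3 at 98.8% and 110%. The median difference of the 9 was 0.32 on the log2(FPKM + 1) scale, against 0.00 over all tested genes. The longest annotated transcripts of the septins run from 1555 bases (SEPTIN1) to 5545 bases (SEPTIN11). With values adjusted for transcript length the mean Jeko difference went from 0.16 to −0.091 for SEPTIN11, from 0.051 to −0.14 for SEPTIN3, from 0.26 to 0.12 for SEPTIN7, from 0.32 to 0.17 for SEPTIN8, from 0.43 to 0.28 for SEPTIN9 and from 0.24 to 0.54 for SEPTIN1. SEPTIN2, SEPTIN5, SEPTIN6, SEPTIN8 and SEPTIN9 stayed above the control with both guides after the adjustment, and SEPTIN1 came above it with both. The share of all tested genes above the control on adjusted values was not computed, so these septins cannot be set against it.

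In Rec-1, 5 septins were above the library labelled control with both guides (SEPTIN1, SEPTIN2, SEPTIN5, SEPTIN6 and SEPTIN11), against 41.8% of tested genes. SEPTIN3, SEPTIN7 and SEPTIN9 were below it with both, against 43.1%. At least 2-fold with both guides were SEPTIN1 (393% and 305% of the control with sgRNA 1 and 2), SEPTIN11 (651% and 734%) and SEPTIN3 (7.69% and 10.99%), 3 of 9 against 23.3% of tested genes. SEPTIN9 was at 59.3% and 53.3%. SEPTIN5 was at 189% and 170%. This comparison and that between the lines share the Rec-1 sgRNA libraries.

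Taking both lines, SEPTIN2, SEPTIN5, SEPTIN6 and SEPTIN11 were above the own-line control in all 4 sgRNA libraries, 4 of 9 against 21.0% of tested genes, and 0 of 9 were below it in all 4, against 21.1%. Without the Rec-1 control, which leaves the Jeko comparison alone, the mean difference of the sgRNA libraries was 0.36 for SEPTIN2, 0.41 for SEPTIN5, 0.54 for SEPTIN6 and 0.16 for SEPTIN11, against 0.31, 0.59, 0.46 and 1.28 with it. For SEPTIN9 it was 0.43 without and −0.20 with that library, and for SEPTIN3 0.052 without and −0.97 with it.

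**Figure D4:**
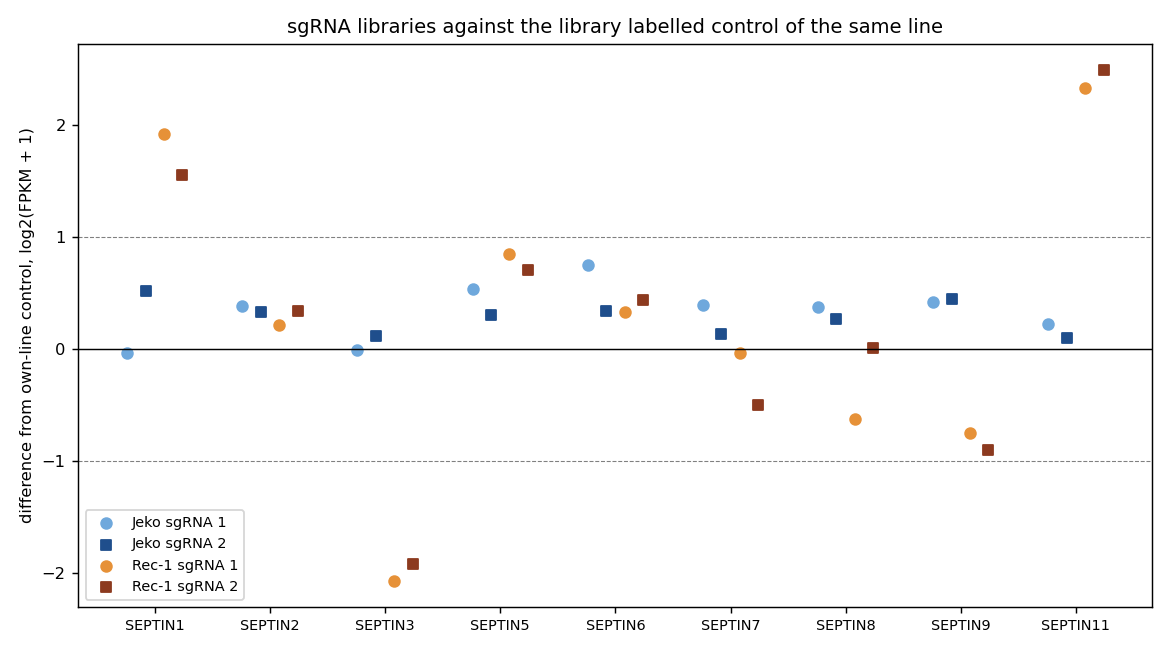
Difference of each sgRNA library from the library labelled control of its line on the log2(FPKM + 1) scale (vertical axis) for the 9 septins, 1 point per library. Dashed lines mark 2-fold. The Jeko points lie between −0.042 and 0.74, while the Rec-1 points reach 2.49 for SEPTIN11 and −2.07 for SEPTIN3.

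The comparison not used in the choice of septins, guide 2 against guide 1 with the line as covariate, called no septin and no gene. In this limma fit 0 of 11400 genes, or 0.0%, had an adjusted p under 0.05, while 656 genes, or 5.75%, had an unadjusted p under 0.05, none of them a septin. Limma's adjusted p ranged from 0.715 (SEPTIN7) to 0.985 (SEPTIN11) over the 9. For SEPTIN7 guide 2 was lower in both lines, by −0.26 in Jeko and −0.46 in Rec-1 on the log2(FPKM + 1) scale (fitted −0.36, SE 0.18). For SEPTIN1 the guides differed in opposite directions, 0.56 in Jeko and −0.36 in Rec-1. SEPTIN8 was level between the Jeko guides (−0.10) and higher with guide 2 in Rec-1 (0.64). With 2 libraries per guide, differences of this size could not be separated from the spread, which does not show that the guides act alike. The fit also takes equal guide numbers as the same guide in both lines, which the labels do not state.

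Partner genes of the septins, from a list written with earlier results of these libraries known, numbered 24, of which 20 had a mean of at least 1 FPKM. Limma called 0 of the 20 for sgRNA against control (0.246% of all genes) and 0 for guide 2 against guide 1. The smallest adjusted p of the 20 were 0.179 and 0.715 in these fits. Between Jeko and Rec-1 sgRNA limma called 5 of the 20, against 25.7% of all genes in either direction, so the count is near that share. All 5 were higher in Jeko, a direction in which 1492 of the 11400 tested genes were called. CDC42EP4 is a BORG protein that binds septins under the control of the GTPase CDC42. Its Jeko levels were 2.11 FPKM with the empty vector, 4.40 with sgRNA 1 and 6.51 with sgRNA 2. The library labelled Rec-1 control held 2.80 FPKM, and both Rec-1 sgRNA libraries were listed at 0. Limma's log2 difference between the sgRNA libraries was 2.67 (limma adjusted p 0.00311). The 2 zeros have no spread, and the 2 libraries of each line hold different guides. The values do not overlap, but this p and those given for CDC42EP4 below are therefore not taken as support. The different guides bear equally on the p of the other partners called between the lines, given below. Those are likewise not taken as support. FLNA, the actin cross-linker filamin A, was 39.5, 60.0 and 51.3 FPKM in the Jeko control, sgRNA 1 and sgRNA 2 and 22.6, 12.8 and 13.9 FPKM in the Rec-1 ones (1.98, limma adjusted p 0.00547). The other 3 were the formin DIAPH1 (limma adjusted p 0.0288), RACGAP1 (0.0379) and citron kinase CIT (0.0454), all of the cytokinesis list. CDC42EP4 and FLNA kept an adjusted p under 0.05 without either Jeko sgRNA library but not without Rec-1 sgRNA 1 (limma adjusted p 0.0557 and 0.0629) or Rec-1 sgRNA 2 (0.0526 and 0.0547). DIAPH1, RACGAP1 and CIT did not keep it without any 1 of the 4 libraries (between 0.0960 and 0.191). PRC1, which bundles the microtubules of the dividing spindle, was, beside CDC42EP4, the only one of the 20 tested partners at least 2-fold from the Rec-1 control with both guides on the log2(FPKM + 1) scale, at 17.6 FPKM in the control and 48.5 and 53.9 in sgRNA 1 and 2. In Jeko 10 of the 13 tested cytokinesis genes were above the control with both guides, against 36.9% of all tested genes, with a median difference of 0.44 on the log2(FPKM + 1) scale. ANLN (anillin), which ties septins to the contractile ring, was among them at 9.45, 17.1 and 14.4 FPKM in the Jeko control, sgRNA 1 and sgRNA 2. In Rec-1 it was 9.60, 10.1 and 8.31 FPKM, with no common direction. Of the 13 tested cytokinesis genes 3 were above the Rec-1 control with both guides, against 41.8% of all tested genes. Another 6 were below it with both, against 43.1%. The median difference of the 13 from that control was −0.072 on the log2(FPKM + 1) scale. Counts of the cytokinesis genes were not adjusted for transcript length, and each control is 1 library.

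The genes nearest to the 3 widest-ranging septins in their pattern over the 6 libraries were found by the mean absolute difference of log2(FPKM + 1) profiles, each centred on its mean, among 11009 genes. For SEPTIN3 they were ANXA4 (0.092), TTTY15 (0.093) and C1orf233 (0.098). ANXA4, a calcium-dependent membrane-binding protein, was 6.12, 6.22 and 5.61 FPKM in the Jeko control, sgRNA 1 and sgRNA 2 and 4.02, 0.238 and 0.232 in the Rec-1 ones. TTTY15 was 3.26, 3.93 and 4.09 FPKM in the same Jeko libraries and 3.01, 0.0079 and 0.022 in the Rec-1 ones. SEPTIN11 had TLDC2 (0.056), LARGE (0.072) and BCAR1 (0.081) as its nearest genes, the last of which encodes an adaptor of integrin signalling. P4HA1 (0.056), LPAR5 (0.065) and RBM38 (0.071) were nearest to SEPTIN1. P4HA1, a subunit of collagen prolyl hydroxylase, was 8.59, 9.36 and 13.02 FPKM in the Jeko control, sgRNA 1 and sgRNA 2 and 12.2, 45.2 and 38.9 in the Rec-1 ones. With 6 libraries, of which 2 stand apart, many genes share such a profile.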

How the data were processed

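The authors deposited 1 table of FPKM values with a column per library, per the file headers. TopHat and hg19 are named in the submitters' processing notes; the program that computed FPKM, the annotation and the use of strand are not given in the sources used here. The table gives no absolute depth, and counting intervals cannot be had from it; 2 rows, MIR6723 and MIR4461, hold between 21.6% and 36.9% of the summed FPKM. Values were analysed as log2(FPKM + 1), which understates changes of low genes. The tests took the 11400 genes that averaged 1 FPKM or more, among them all 9 septins. Limma 3.58.1 in R 4.3.3 (eBayes with a trend) fitted sgRNA against control (6 libraries, line as covariate), Jeko against Rec-1 sgRNA (4 libraries) and guide 2 against guide 1 (4 libraries, line as covariate), with Benjamini-Hochberg adjustment over all tested genes. The fits were tested on simulated data. Gene positions and transcript lengths are from GENCODE on GRCh37, with a length for 96.8% of tested genes; septins were matched by number. SEPTIN7 copies were aligned with blastn 2.17.0. Python 3.11.15 was used for the rest. The septins, gene lists and tests were chosen with earlier results of these data known. The text names the 9 septins, NR4A1, partner genes past the threshold or at least 2-fold with both guides, and the 3 genes nearest in pattern to each of the 3 widest-ranging septins; ANLN and the marker genes given singly were picked after their values were seen. Alternatives were another pseudocount, filter, scaling, length adjustment, gene set, guide block and leaving out each library.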

Additional observations from a re-analysis of the deposited data

Results flagged for a closer look

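SEPTIN9 and SEPTIN7 moved in opposite directions in the 2 lines in every sgRNA library, and the difference between the lines was not tested. The mean difference from the own-line control was 0.43 in Jeko and −0.83 in Rec-1 for SEPTIN9, and 0.26 in Jeko and −0.27 in Rec-1 for SEPTIN7, on the log2(FPKM + 1) scale. Of all tested genes 10.8% were higher with both guides in Jeko and lower with both in Rec-1. Each control is 1 library, and the library labelled Rec-1 control lies close to the Jeko control (see the Pearson correlation of 0.988). For SEPTIN7 the lowering in Rec-1 sgRNA 1 was 0.036 in size, and after adjustment for transcript length Jeko sgRNA 2 was at −0.015.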

How the results depend on the processing

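For the septins, 124 of 125 values of sgRNA minus control and 104 of 107 of Jeko sgRNA minus Rec-1 sgRNA stayed within 1 SD of the libraries under the alternatives; the exceptions were SEPTIN3 (3.67) and SEPTIN11 (−2.50) between the lines at a pseudocount of 0.1, and, when rescaled without MIR6723 and MIR4461, SEPTIN3 between the lines (2.66) and SEPTIN2 against control (0.39). That SD is wide. Leaving out 1 sgRNA library cannot move a difference between the lines past it. Filter, gene set and guide block leave the value of each septin unchanged. These alternatives could not fail, so the counts of values that stayed do not show stability. Without the Rec-1 control sgRNA minus control turned from −0.20 to 0.43 for SEPTIN9 and from −0.97 to 0.052 for SEPTIN3. For SEPTIN7 it turned from −0.0023 to 0.26. Guide 2 minus guide 1 changed sign within Jeko alone for SEPTIN2 (−0.051), SEPTIN8 (−0.10), SEPTIN9 (0.027) and SEPTIN11 (−0.12), within Rec-1 alone for SEPTIN1 (−0.36) and SEPTIN6 (0.10), and with adjustment for transcript length for SEPTIN11 (−0.0050). Without SEPTIN9 the family ratio was 1.04 and the SEPT3-group share 1.82 points higher in Jeko, against 19.2 points with it.

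Of limma's counts over all genes, sgRNA against control went from 28 to 12 with no filter, to 0 with protein-coding genes only (2324 at an unadjusted p under 0.05) and to 9 with a replicate block on guide number. Leaving out 1 library moved it between 11 (Rec-1 sgRNA 1) and 2180 (Jeko control), with 12 without Rec-1 sgRNA 2, 16 and 18 without Jeko sgRNA 1 and 2 and 51 without the Rec-1 control. Jeko against Rec-1 sgRNA went from 2933 to 1529 at a minimum mean of 5 FPKM, to 2638 with the replicate block, and to between 847 and 1253 without 1 library (lowest without Rec-1 sgRNA 1, then 939 without Rec-1 sgRNA 2 and 1165 and 1253 without Jeko sgRNA 1 and 2). Guide 2 against guide 1 went from 0 to 8 at a minimum of 5 FPKM, 8 with length adjustment, 5 when rescaled without MIR6723 and MIR4461 and 2 with all 6 libraries. Leaving a library out of that contrast leaves no residual spread and was not run. The guide numbers were not taken as pairs in the other 2 contrasts, and differences between guides correlated between the lines at 0.0998 across genes. Guide 2 against guide 1 does take equal numbers as the same guide in both lines. Under the replicate block RACGAP1 lost its call between the lines (limma adjusted p 0.0545) and the other 4 partners kept theirs. No replicate of either control exists, and low values of Rec-1 sgRNA 1 show no common step, so its depth relative to the others is unknown.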

Other observations

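Among the date rows that are no septins, 3-Mar was at most 0.0264 FPKM in the Jeko libraries and the Rec-1 control and 1.70 and 1.40 FPKM in Rec-1 sgRNA 1 and 2. The row 6-Mar was 4.96, 6.06 and 7.67 FPKM in the Jeko control, sgRNA 1 and sgRNA 2 and 6.12, 12.9 and 11.4 FPKM in the Rec-1 ones. The names 1-Mar and 2-Mar each stand in 2 rows, 1 of which is listed at 0 in all 6 libraries, so these 2 dates do not each name a single gene.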
